A study of Mus musculus with 8 samples.

Results

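The 10 genes described here, *Fos*, *Fosb*, *Fosl2*, *Jun*, *Junb*, *Atf3*, *Egr1*, *Egr3*, *Egr4* and *Ier2*, are immediate early genes, and they were followed in cells sorted from the neonatal mouse cochlea. They were picked by gene symbol from the 36536 Ensembl genes of the count data, and each symbol matched 1 Ensembl gene of the NCBIM37 (mm9) annotation. RNA-seq was performed on cells of *Lfng-GFP* mice, which carry a bacterial artificial chromosome transgene with GFP under the control of the *Lfng* locus and label most, but not all, supporting cell types of the organ of Corti. Cochleas were taken at postnatal day 1 (P1) and postnatal day 6 (P6), dissociated with papain and sorted on GFP fluorescence, giving the groups P1 GFP+, P1 GFP-, P6 GFP+ and P6 GFP- with 2 replicate libraries each. All 8 libraries carry the transgene and none was given a drug. Only the brightest cells were taken as GFP+. Cells with low GFP, which the paper takes to be likely inner pillar and inner hair cells, were left out. The GFP- cells are GFP-negative cells of the dissected tissue and not 1 cell type. The dissection differed between the ages, because the duct was peeled from the modiolus at P1 and was cut out with part of the lateral wall left at P6, so age and dissection cannot be told apart. All cells had been dissociated and sorted, so the level of these genes in the intact cochlea was not measured here. The sources used here do not say whether the replicates came from separate pools of animals, and p-values then measure only the spread between these libraries, which may be technical.

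Immediate early genes are switched on within minutes of a stimulus by transcription factors that are already present in the cell, such as SRF and CREB, and need no new protein for it. The FOS and JUN proteins, and ATF3, dimerize into AP-1, which binds DNA at AP-1 and CRE sites. The EGR proteins are zinc finger factors that bind GC-rich sites and are held in check by the corepressors NAB1 and NAB2, and *Ier2* encodes a nuclear protein. Growth factors, neuronal activity and stress induce these genes, and enzymatic dissociation of a tissue is a well known inducer.

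The libraries held 17769024 to 67695039 counts on genes, which made up 64.7% to 76.2% of the reads or read pairs listed. Levels are given as CPM, gene counts scaled so that those of each library sum to 1000000, and levels are compared between genes only per kilobase of exon (RPKM). The summed CPM of 7 supporting cell markers was 4763 to 7519 in the GFP+ libraries and 187 to 262 in the GFP- libraries, so the fractions carried the markers of their labels. Markers of other cells were found in the GFP+ libraries as well. The sum of 8 hair cell markers was 693 to 795 CPM in P1 GFP+ cells, 399 to 461 CPM in P1 GFP-, 424 to 503 CPM in P6 GFP+ and 341 to 383 CPM in P6 GFP- cells, so it was highest in P1 GFP+, and 1 marker was at 0 in 1 P6 GFP- library. Markers of fibroblasts and of macrophages were higher in P6 GFP+ than in P1 GFP+ libraries. The sum of 6 fibroblast and mesenchyme markers was 343 to 369 CPM in P1 GFP+ cells and 1006 to 2830 CPM in P6 GFP+ cells, against 13260 to 18089 CPM in GFP- cells, with no marker at 0. Within the P6 GFP+ group, replicate 2 stood apart with 2830 CPM of these markers and 281 CPM of 7 endothelial markers, where replicate 1 had 1006 and 76.6 CPM. The sum of 6 Schwann cell markers was 1114 CPM in P6 GFP+ replicate 1 and 2366 CPM in P6 GFP+ replicate 2. It was 360.5 to 419.5 CPM in P1 GFP+, 736.1 to 787.4 CPM in P1 GFP- and 1377 to 1634 CPM in P6 GFP- cells. For these markers P6 GFP+ replicate 2 thus lay above both P6 GFP- libraries. Leaving out P6 GFP+ replicate 2 keeps replicate 1, which also had more of these markers than either P1 GFP+ library. The part of other cell types in the results below was therefore not tested, and in bulk libraries fewer cells of a type and less RNA per cell cannot be told apart.

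The sequences upstream of 6 of the genes are shown. *Jun*, *Junb*, *Fosl2*, *Atf3* and *Egr4* are the genes with a called difference below, and *Fos* is the most abundant of the 10. Each is the 250 bases before the RefSeq start of the gene on GRCm38.p6, a later build than that of the counts, written 5′ to 3′ on the strand of the gene. Capitals mark a CRE core, TGACG or its reverse complement CGTCA, and in *Fosl2* an EGR site.
Fos (chr12:85473640-85473889, plus strand): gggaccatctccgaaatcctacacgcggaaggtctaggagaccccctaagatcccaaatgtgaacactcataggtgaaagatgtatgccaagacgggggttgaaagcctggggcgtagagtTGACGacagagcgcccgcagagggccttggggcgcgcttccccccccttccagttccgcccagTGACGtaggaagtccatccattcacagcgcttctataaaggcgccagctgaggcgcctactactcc
Jun (chr4:95052223-95052472, minus strand): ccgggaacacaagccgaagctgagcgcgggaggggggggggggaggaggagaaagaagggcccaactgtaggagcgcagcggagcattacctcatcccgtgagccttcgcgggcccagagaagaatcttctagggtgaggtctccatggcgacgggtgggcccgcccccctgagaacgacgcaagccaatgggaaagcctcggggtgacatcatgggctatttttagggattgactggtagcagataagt
Junb (chr8:84978749-84978998, minus strand): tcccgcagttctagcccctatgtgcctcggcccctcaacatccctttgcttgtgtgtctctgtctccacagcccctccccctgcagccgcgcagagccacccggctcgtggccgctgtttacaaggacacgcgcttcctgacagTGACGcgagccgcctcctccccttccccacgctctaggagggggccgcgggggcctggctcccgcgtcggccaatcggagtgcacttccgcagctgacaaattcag
Egr4 (chr6:85513590-85513839, minus strand): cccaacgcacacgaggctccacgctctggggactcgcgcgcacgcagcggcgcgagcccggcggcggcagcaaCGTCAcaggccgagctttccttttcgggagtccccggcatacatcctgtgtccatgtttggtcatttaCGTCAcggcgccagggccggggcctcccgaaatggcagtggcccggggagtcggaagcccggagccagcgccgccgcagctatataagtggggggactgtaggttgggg
Atf3 (chr1:191183334-191183583, minus strand): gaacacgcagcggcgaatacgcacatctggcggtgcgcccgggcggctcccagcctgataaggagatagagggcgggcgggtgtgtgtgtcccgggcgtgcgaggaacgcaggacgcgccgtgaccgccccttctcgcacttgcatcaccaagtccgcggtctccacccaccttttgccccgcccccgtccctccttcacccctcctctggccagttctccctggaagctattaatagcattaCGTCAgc
Fosl2 (chr5:32136222-32136471, plus strand): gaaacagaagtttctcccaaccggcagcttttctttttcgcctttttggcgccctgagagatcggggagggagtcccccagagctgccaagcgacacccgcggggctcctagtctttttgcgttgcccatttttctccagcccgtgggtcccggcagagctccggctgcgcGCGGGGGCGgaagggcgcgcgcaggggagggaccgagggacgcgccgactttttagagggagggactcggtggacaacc
Windows of this kind were at hand for 7 of the 10 genes, and there were none for *Egr1*, *Egr3* and *Ier2*. The CRE core was found in 5 of the 7 windows and in 17.8% of all 32851 windows of the same length. *Fos* held it at 129 and 66 bases before the start, *Egr4* at 177 and 109 bases, *Junb* at 106 bases, *Fosb* at 60 bases and *Atf3* at 7 bases, while *Jun* and *Fosl2* had none. An EGR site, GCGNGGGCG on either strand, was found in *Fosb*, at 50 bases, and in *Fosl2*, at 79 bases, and in 4.7% of all windows. The full CRE (TGACGTCA, which contains the core), the AP-1 site (TGANTCA) and the CArG box, the site of SRF, were in none of the 7 windows and in 1.55%, 6.75% and 1.47% of all windows. Sites farther upstream or inside the genes lay outside these windows, so their absence here does not show that the genes lack them. A match is a stretch of letters and does not show binding.

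Together the 10 genes took a sizeable share of the libraries, and a larger share at P6 than at P1. Of the gene counts of a library, they made up 0.471% and 0.352% in the P1 GFP+ group and 0.490% and 0.585% in the P1 GFP- group. These shares came to 0.747% and 0.674% for the P6 GFP+ group and to 0.918% and 0.831% for the P6 GFP- group, so every P6 library was above every P1 library. *Fos* ranked between place 18 and place 67 of all genes by CPM, and *Egr1* between place 20 and place 50. *Egr4*, the rarest, was between place 9992 and place 17255.

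The order of the genes by RPKM was much the same in all 4 groups at its top. *Fos* came first with 512 ± 86.0 RPKM in P1 GFP+, 713 ± 95.5 in P1 GFP-, 917 ± 90.8 in P6 GFP+ and 1210 ± 97.6 in P6 GFP- (SD, n = 2 each). *Egr1* came second with 494, 626, 640 and 830 RPKM in the same order of groups, and at P1 the replicates of *Fos* and *Egr1* overlapped in both fractions. *Fosb* and then *Jun* came next at P1, whereas at P6 the replicates of these genes overlapped. *Ier2* and *Junb* followed, and their replicates overlapped in every group except P1 GFP+, where those of *Jun* and *Ier2* overlapped. *Atf3* and *Egr3* came next, with *Egr3* above *Atf3* in P1 GFP+ only. *Fosl2* and *Egr4* were last, with *Egr4* above *Fosl2* in P1 GFP+ alone, where their replicates did not overlap.

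**Figure D1:**
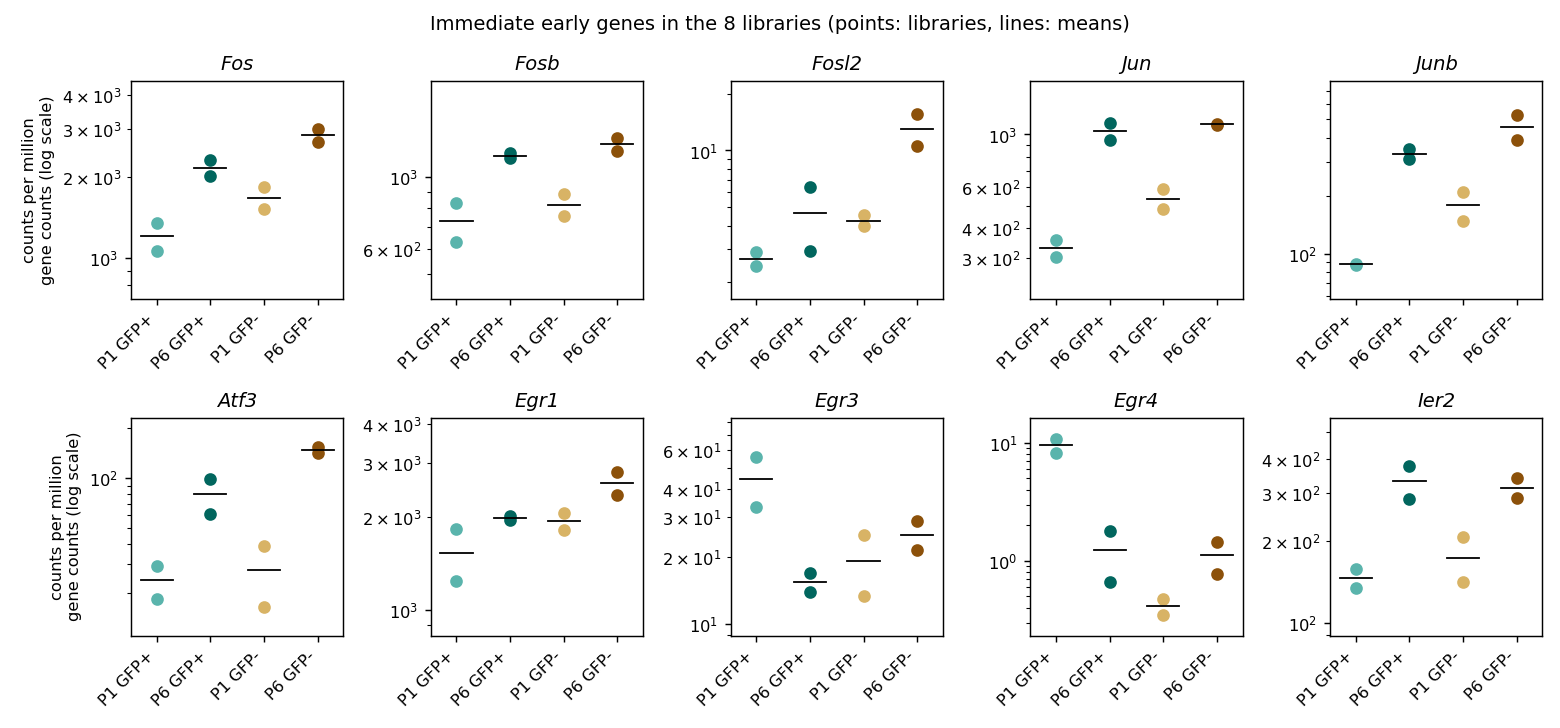
Level of each of the 10 genes in CPM (log scale, own range per gene) in the 8 libraries. Points are libraries and lines are the means of 2 libraries, and *Egr3* and *Egr4* are highest in P1 GFP+ while the other 8 genes have their highest mean at P6.

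Groups were compared by the quasi-likelihood test of edgeR on the 4 libraries of each comparison, with Benjamini-Hochberg adjustment over all genes tested, and a gene was called at an adjusted p-value below 0.01. The fold changes come from edgeR with TMM scaling and can therefore differ slightly from the ratio of the CPM values. The tests by fraction and by age share libraries and are not independent of each other.

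Of the FOS family, *Fos* and *Fosb*, which encode strong activating partners of JUN, were high everywhere and higher at P6, without passing the test. *Fos* (ENSMUSG00000021250, chromosome 12, 86814840 to 86818223) was at 1347 and 1061 CPM in P1 GFP+ cells, 1517 and 1835 CPM in P1 GFP- cells, 2308 and 2006 CPM in P6 GFP+ cells and 3009 and 2684 CPM in P6 GFP- cells. In both fractions the P6 replicates lay above the P1 replicates, and at both ages the GFP- replicates lay above the GFP+ replicates. The log2 fold change of GFP+ over GFP- was -0.37 at P1 (edgeR adjusted p = 0.132) and -0.41 at P6 (edgeR adjusted p = 0.289). The log2 fold change of P6 over P1 was 0.93 (standard error 0.22, edgeR adjusted p = 0.0409) in GFP+ cells and 0.96 (standard error 0.19, edgeR adjusted p = 0.0153) in GFP- cells. *Fosb* (ENSMUSG00000003545, chromosome 7, 19888070 to 19895394) was at 832 and 629 CPM in P1 GFP+ cells, 757 and 885 CPM in P1 GFP- cells, 1183 and 1141 CPM in P6 GFP+ cells and 1201 and 1318 CPM in P6 GFP- cells. The fractions overlapped at P1, and at P6 they differed by 0.12 on the log2 scale, less than the standard error of 0.22. The *Fosb* difference between the ages was 0.76 (edgeR adjusted p = 0.0567) in GFP+ cells and 0.81 (edgeR adjusted p = 0.0128) in GFP- cells. Leaving out the P1 GFP- replicate 2 library brought both genes past the threshold in GFP- cells, at edgeR adjusted p = 0.00118 for *Fos* and 0.00219 for *Fosb*, and leaving out either P6 GFP+ library did so in GFP+ cells. Without P1 GFP- replicate 1, *Fos* was also called lower in P1 GFP+ than in P1 GFP- cells (log2 -0.53, edgeR adjusted p = 0.000357).

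*Fosl2*, which encodes a FOS relative without the strong activation domain of FOS, was much rarer and rose with age in the GFP- cells. *Fosl2* (ENSMUSG00000029135, chromosome 5, 32438845 to 32460204) had 2.90 and 2.45 CPM in P1 GFP+ cells, 3.99 and 4.53 CPM in P1 GFP- cells, 2.93 and 6.43 CPM in P6 GFP+ cells and 15.6 and 10.6 CPM in P6 GFP- cells. The P6 GFP- libraries were above all others, and the P6 GFP+ replicates lay 2.20-fold apart. The rise in GFP- cells was 3.51-fold (log2 1.81, standard error 0.25, edgeR adjusted p = 0.00446). It missed the threshold without P6 GFP- replicate 1 (edgeR adjusted p = 0.0408) and without P6 GFP- replicate 2 (0.01004), and with all 8 libraries in the fit (0.0160, in a range of 9.254e-14 to 0.0160 over 7 settings). In GFP+ cells the log2 difference between the ages was 0.89 (edgeR adjusted p = 0.184), and without P6 GFP+ replicate 1 it was 1.31 (edgeR adjusted p = 0.000103). At P6 *Fosl2* was 1.48 lower in GFP+ cells on the log2 scale (edgeR adjusted p = 0.0431), and this passed the threshold without either P6 GFP+ library.

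The JUN family members *Jun* and *Junb* rose with age in both fractions. *Jun*, whose protein is the main partner of FOS in AP-1 (ENSMUSG00000052684, chromosome 4, 94715725 to 94718913), was at 359 and 301 CPM in P1 GFP+ cells and at 1123 and 949 CPM in P6 GFP+ cells, a rise of 3.35-fold (log2 1.74, standard error 0.20, edgeR adjusted p = 0.00699). In GFP- cells it was at 484 and 585 CPM at P1 and at 1111 and 1101 CPM at P6, a rise of 2.36-fold (log2 1.24, edgeR adjusted p = 0.00273). The P6 levels of the fractions overlapped, and at P1 *Jun* was 0.59 lower in GFP+ cells on the log2 scale, with edgeR adjusted p = 0.0183. This last difference passed the threshold without either P1 GFP- library. *Junb*, whose protein often restrains JUN (ENSMUSG00000052837, chromosome 8, 87500811 to 87502617), was at 88.6 and 87.0 CPM in P1 GFP+ cells, 147 and 209.6 CPM in P1 GFP- cells, 349.7 and 310.5 CPM in P6 GFP+ cells and 525 and 389 CPM in P6 GFP- cells. Its replicates did not overlap in any of the 4 comparisons. It rose 4.01-fold with age in GFP+ cells (log2 2.00, standard error 0.14, edgeR adjusted p = 0.00286) and 2.94-fold in GFP- cells (log2 1.55, edgeR adjusted p = 0.00505). At P1 it was 1.89-fold lower in GFP+ than in GFP- cells (log2 -0.92, standard error 0.17, edgeR adjusted p = 0.00554), and at P6 the log2 difference was -0.47 (edgeR adjusted p = 0.170).

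The calls of *Jun* and *Junb* depended on single libraries. In GFP+ cells the rise of *Jun* missed the threshold without P1 GFP+ replicate 1 (edgeR adjusted p = 0.0105) and without P1 GFP+ replicate 2 (0.0701), and that of *Junb* without P1 GFP+ replicate 2 (0.0197). In GFP- cells the rise of *Jun* was lost without P6 GFP- replicate 1 (edgeR adjusted p = 0.0180) or replicate 2 (0.0143), and that of *Junb* without P6 GFP- replicate 1 (0.0250). The P1 fraction difference of *Junb* was lost without P1 GFP+ replicate 1 (edgeR adjusted p = 0.0330) or replicate 2 (0.0413). In each of these the direction stayed. With 1 library left out, the log2 rise in GFP+ cells ranged from 1.585 to 1.908 for *Jun* and from 1.885 to 2.118 for *Junb*. In GFP- cells it ranged from 1.098 to 1.368 for *Jun* and from 1.292 to 1.814 for *Junb*. The P1 fraction difference of *Junb* ranged from -1.176 to -0.650. With all 8 libraries in the fit, the P1 difference of *Junb* had edgeR adjusted p = 0.01001, the highest of 6 settings that went down to 1.605e-14, and with library totals in place of TMM its rise in GFP- cells had 0.0111, the highest of 7 that went down to 5.12e-26. *Jun* overlaps the gene BC042782 on the other strand, and *Egr1* overlaps Gm17507 on the other strand. Whether the counting used strand is not given in the sources used here, and without strand the reads of such partners cannot be told apart.

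*Atf3*, a stress-induced factor that pairs with JUN proteins, showed the largest rise of the 10 genes in GFP- cells. *Atf3* (ENSMUSG00000026628, chromosome 1, 192994175 to 193007219) was at 29.4 and 18.6 CPM in P1 GFP+ cells, 16.6 and 38.9 CPM in P1 GFP- cells, 99.3 and 60.3 CPM in P6 GFP+ cells and 154.5 and 143 CPM in P6 GFP- cells. The fractions overlapped at P1, and at P6 both GFP- libraries were above both GFP+ libraries. It rose 6.08-fold in GFP- cells (log2 2.61, standard error 0.35, edgeR adjusted p = 0.00408), and this missed the threshold without P6 GFP- replicate 1 (edgeR adjusted p = 0.0251) or replicate 2 (0.0181). In GFP+ cells the log2 difference between the ages was 1.82 (edgeR adjusted p = 0.0254), and it passed the threshold when P1 GFP+ replicate 1 or either P6 GFP+ library was left out. Between the fractions at P6 the log2 difference was -0.90 (edgeR adjusted p = 0.0516), and it passed without either P6 GFP+ library. At P1 it was -0.10, and it turned to 0.64 (edgeR adjusted p = 0.000965) without P1 GFP- replicate 2 and was -0.59 (0.000671) without P1 GFP- replicate 1.

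The EGR genes did not move together. *Egr1*, the most abundant of them and the textbook EGR factor of growth factor responses (ENSMUSG00000038418, chromosome 18, 35020861 to 35024638), was at 1824 and 1242 CPM in P1 GFP+ cells, 1817 and 2064 CPM in P1 GFP- cells, 2009 and 1962 CPM in P6 GFP+ cells and 2790 and 2358 CPM in P6 GFP- cells. It was called in none of the 4 comparisons, and its log2 fold change of P6 over P1 was 0.46 (edgeR adjusted p = 0.230) in GFP+ cells and 0.60 (edgeR adjusted p = 0.0667) in GFP- cells. Without P6 GFP+ replicate 2 the former was 0.51 with edgeR adjusted p = 0.00332. *Egr3*, an EGR factor of nerve, muscle spindle and lymphocytes (ENSMUSG00000033730, chromosome 14, 70477252 to 70479964), was at 55.7 and 33.3 CPM in P1 GFP+ cells, 13.4 and 24.99 CPM in P1 GFP- cells, 13.9 and 16.9 CPM in P6 GFP+ cells and 28.8 and 21.4 CPM in P6 GFP- cells. Both P1 GFP+ libraries were above the other 6, and at P6 both GFP+ libraries were below both GFP- libraries. The log2 fold change of GFP+ over GFP- was 1.32 (edgeR adjusted p = 0.0240) at P1 and -0.71 (edgeR adjusted p = 0.0586) at P6, and that of P6 over P1 in GFP+ cells was -1.45 (edgeR adjusted p = 0.0282). In GFP- cells the log2 fold change of P6 over P1 was 0.58 (edgeR adjusted p = 0.218), with replicates that overlapped. None of these was called with all libraries. The P1 difference passed the threshold without either P1 GFP- library and the P6 difference without P6 GFP+ replicate 2. The change with age in GFP+ cells passed it without either P6 GFP+ library. In GFP- cells the change with age ranged from 0.19 to 1.09 with 1 library left out.

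*Egr4* showed the largest difference among the 10 genes, between the fractions at P1. *Egr4* (ENSMUSG00000071341, chromosome 6, 85461125 to 85463583), an EGR gene best known from neurons and testis, was at 10.9 and 8.20 CPM in P1 GFP+ cells and at 0.475 and 0.349 CPM in P1 GFP- cells, from 500 and 204 counts against 18 and 22 counts. It was 25.5-fold higher in GFP+ cells (log2 4.67, standard error 0.31, edgeR adjusted p = 9.365e-05) and stayed called with any 1 of the 4 libraries left out. At P6 it had 1.80 and 0.670 CPM in GFP+ cells and 1.46 and 0.768 CPM in GFP- cells, and these replicates overlapped (log2 0.10, edgeR adjusted p = 0.920). From P1 to P6 its log2 fold change was -2.91 (standard error 0.52, edgeR adjusted p = 0.0216) in GFP+ cells and 1.65 (standard error 0.47, edgeR adjusted p = 0.0530) in GFP- cells. The former passed the threshold without either P6 GFP+ library. The P6 GFP+ values rest on 32 and 20 counts, so their ratio to other groups is imprecise. Most hair cell markers differed in the same direction at P1, with 7 of 8 estimates above 0 and a median of 2.54 on the log2 scale. Of the 8, 5 were called higher in GFP+ cells and 0 lower, where 16.6% and 20.7% of all genes were. *Atoh1* was 24.3-fold and *Pou4f3* 12.2-fold higher, and 3 of the 8 were not called. At P6 5 of 8 were again called higher and 0 lower, beside 7.72% and 5.19% of all genes. Their median was 2.70, while *Egr4* was not called. With age in GFP+ cells 2 of 8 were called lower (*Atoh1* and *Myo7a*) and 0 higher, beside 1.95% and 2.86% of all genes, with a median of -0.53. The part of these cells in the values of *Egr4* was not tested.

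*Ier2* (ENSMUSG00000053560, chromosome 8, 87185230 to 87186751) was at 157 and 134 CPM in P1 GFP+ cells, 140 and 205 CPM in P1 GFP- cells, 377 and 284 CPM in P6 GFP+ cells and 339.6 and 286 CPM in P6 GFP- cells. The fractions overlapped at both ages, and in both fractions the P6 libraries were above the P1 libraries. The log2 fold change of P6 over P1 was 1.27 (edgeR adjusted p = 0.0170) in GFP+ cells and 1.05 (edgeR adjusted p = 0.0133) in GFP- cells, so *Ier2* was not called in either. It passed the threshold in GFP+ cells without either P6 GFP+ library and in GFP- cells without either P1 GFP- library. Without P1 GFP- replicate 1 it was also called lower in GFP+ cells at P1 (log2 -0.41, edgeR adjusted p = 0.000935).

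Set by comparison, few of the 10 genes were called between the fractions. At P1, 1 of the 10 genes (*Egr4*) was called higher in GFP+ cells, where 16.6% of the 18682 genes tested were, and 1 (*Junb*) was called lower, where 20.7% were. With the study's further limit of a 4-fold difference, 1 was higher, beside 6.46% of all genes, and 0 were lower, beside 11.4%. The replicates did not overlap for 2 genes that were higher and 4 that were lower in GFP+ cells, where this held for 34.5% and 44.9% of all genes. The median log2 fold change of the 10 genes was -0.18, beside 0.0075 for all genes. Calls over all genes also changed when 1 library was left out. Without P1 GFP- replicate 1, 5 of the 10 were called lower and 2 higher, where 27.8% and 22.4% of all genes were. Without P1 GFP- replicate 2, 3 were called higher and 2 lower, beside 24.3% and 27.0% of all genes. Without either P1 GFP+ library 0 were lower, beside 11.0% of all genes in both cases. At P6, edgeR called 0 of the 10 in either direction, where 7.72% of the 18294 genes tested were called higher and 5.19% lower. At an unadjusted p below 0.05, *Fosl2*, *Atf3* and *Egr3* were lower and 0 were higher, and the share of all genes at this limit was not counted. The DESeq2 test called 1 of the 10 lower, and over all genes it called 4891 in either direction, against 2363 by edgeR. The median of the 10 genes at P6 was -0.39, beside -0.02 for all genes. The replicates did not overlap for 7 genes, all lower in GFP+ cells, where 37.6% of all genes were lower and 35.7% higher without overlap. With the 4-fold limit 4.88% of all genes were higher and 3.10% lower. Without P6 GFP+ replicate 1, 2 of the 10 were called lower, beside 14.7% of all genes, and without P6 GFP+ replicate 2, 3 were, beside 22.6%.

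**Figure D2:**
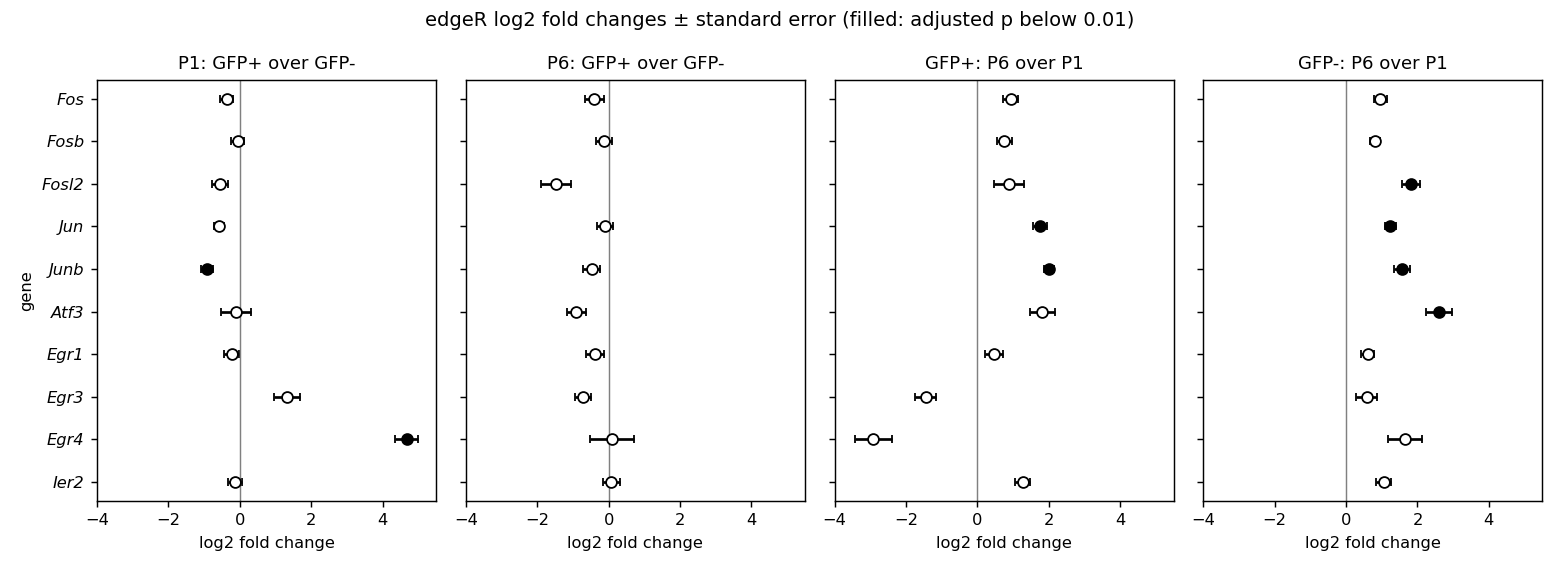
Log2 fold change of each gene in the 4 comparisons, with the standard error of edgeR's fit, and filled points where the adjusted p-value was below 0.01. The 2 panels on the right, P6 over P1, hold 2 and 4 filled points, and *Egr4* at P1 is farthest from 0.

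By age, most of the 10 genes were higher at P6 in both fractions, and part of them passed the test. In GFP+ cells 2 of the 10 (*Jun* and *Junb*) were called higher at P6, where 2.86% of the 17213 genes tested were, and 0 were called lower, where 1.95% were. At an unadjusted p below 0.05, edgeR gave 6 genes higher and 2 lower (*Egr3* and *Egr4*), and the share of all genes at this limit was not counted. The DESeq2 test called 6 of the 10 higher and 2 lower, and over all genes it called 3037 in either direction, against 828 by edgeR. The P6 replicates lay above the P1 replicates without overlap in 8 of the 10 genes, beside 29.3% of all genes, and below them in 2, beside 41.1%. With the 4-fold limit 1 gene (*Junb*) was higher, beside 1.63% of all genes, and 0 were lower, beside 0.930%. The median log2 fold change was 0.91, beside -0.0024 for all genes. Without P6 GFP+ replicate 1 and without P6 GFP+ replicate 2, 7 genes were called higher in each case and 2 lower, where 20.8% and 22.5% of all genes were called higher and 14.5% and 20.7% lower. Without P1 GFP+ replicate 2, 0 of the 10 were called, beside 0.442% of all genes higher and 0.315% lower. In GFP- cells 4 of the 10 (*Fosl2*, *Jun*, *Junb* and *Atf3*) were called higher at P6, where 5.04% of the 18920 genes tested were, and 0 were lower, where 2.34% were. At an unadjusted p below 0.05, 9 were higher and 0 lower, and the share of all genes at this limit was not counted. The DESeq2 test called 8 of the 10 higher and 0 lower, and over all genes it called 3043 in either direction, against 1397 by edgeR. The replicates lay higher without overlap in 9 of the 10, beside 20.5% of all genes, and lower in 0, beside 48.9%. With the 4-fold limit 1 gene (*Atf3*) was higher, beside 1.43% of all genes, and 0 were lower, beside 0.418%. The median log2 fold change was 1.15, beside -0.02 for all genes. Without P6 GFP- replicate 1, 0 were called, where 1.11% of all genes were higher. Without P6 GFP- replicate 2, 1 was called higher, beside 1.71% of all genes, and without P1 GFP- replicate 2, 8 were, beside 9.39%. Fibroblast, endothelial, Schwann cell and macrophage markers had medians of 2.23, 2.55, 3.14 and 2.43 on the log2 scale between P1 and P6 in GFP+ cells, with 1 of 6, 0 of 7, 0 of 6 and 1 of 8 of them called higher. In GFP- cells these medians were 0.58, 0.30, 1.20 and 1.19, with 0 of 6, 1 of 7, 4 of 6 and 5 of 8 called higher. In neither fraction was any of these markers called lower. P6 GFP+ replicate 2 was the GFP+ library with the most of these markers. Without it the log2 fold change was 1.89 for *Jun* and 2.12 for *Junb* in GFP+ cells. The P6 GFP+ library that remains, replicate 1, still held 1006 CPM of the fibroblast and 1114 CPM of the Schwann cell markers. In the P1 GFP+ libraries these sums were at most 369.3 and 419.5 CPM. The part of these cells in the rise of *Jun* and *Junb* was therefore not tested.

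The difference between the fractions in the change with age was tested with the age by fraction interaction over all 8 libraries. It called 0 of the 10 genes by edgeR, where 0.946% of the 19233 genes tested were called higher and 0.988% lower, and with the 4-fold limit 0.660% and 0.598%. At an unadjusted p below 0.05, *Egr3* and *Egr4* were lower and 0 were higher, and the share of all genes at this limit was not counted. The DESeq2 test called 2 of the 10 lower, and over all genes it called 1422 in either direction, against 372 by edgeR. For *Egr4* the interaction was -4.59 on the log2 scale (standard error 0.75, edgeR adjusted p = 0.0122) and for *Egr3* -2.05 (standard error 0.50, edgeR adjusted p = 0.0509). That of *Egr4* passed the threshold without either P6 GFP+ library. The estimates of the other 8 genes were between -0.94 and 0.48, with edgeR adjusted p-values of 0.347 or above, so a difference in their response between the fractions was not detectable with these libraries.

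**Figure D3:**
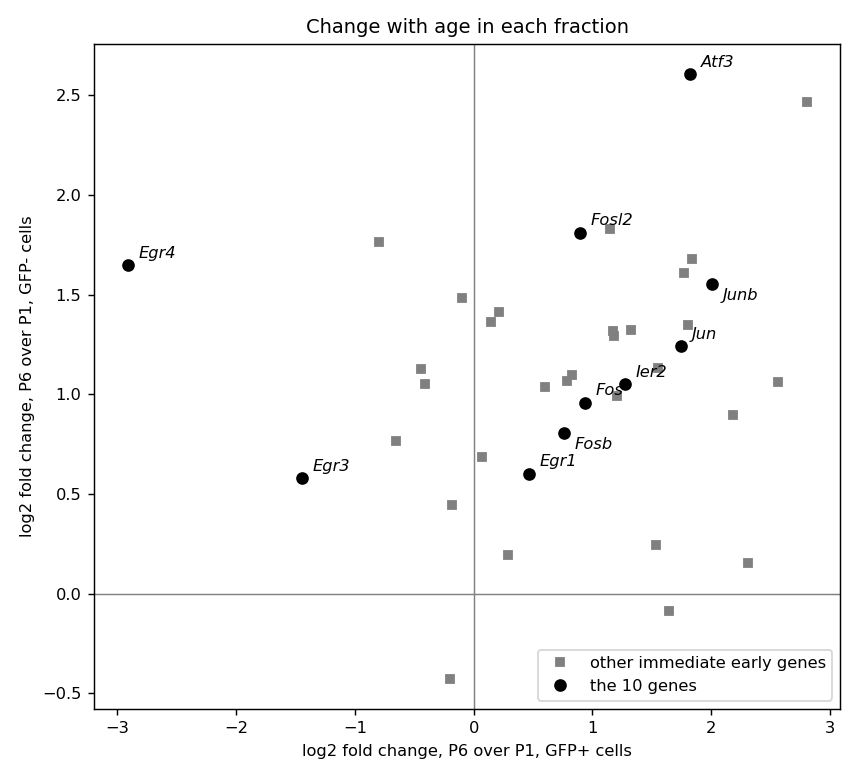
Log2 fold change of P6 over P1 in GFP+ cells (x axis) and in GFP- cells (y axis), from edgeR, for the 10 genes (black circles) and the other immediate early genes tested in both (grey squares). Of the 10 genes, 8 lie above 0 on both axes, and *Egr3* and *Egr4* lie below 0 in GFP+ cells and above 0 in GFP- cells.

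A list of 30 other immediate early genes, which includes the remaining JUN and EGR genes, likewise held more genes called higher than lower at P6. In GFP+ cells 7 of the 29 tested were called higher at P6 and 0 lower, with a median of 1.15 on the log2 scale, where 2.86% and 1.95% of all genes were called. In GFP- cells 16 of 29 were called higher and 0 lower, with a median of 1.10, where 5.04% and 2.34% of all genes were called. *Jund*, the JUN family gene that is usually constitutive, rose from a mean of 57.3 to 157 CPM in GFP+ cells (log2 1.56, edgeR adjusted p = 0.00804) and from 82.7 to 159 CPM in GFP- cells (log2 1.13, edgeR adjusted p = 0.00427). *Dusp1*, which encodes a phosphatase of MAP kinases, rose from 115 to 388 CPM in GFP+ cells (log2 1.84, edgeR adjusted p = 0.00398) and from 144 to 404 CPM in GFP- cells (log2 1.68, edgeR adjusted p = 0.000544). The rise of *Jund* was lost in GFP+ cells without P1 GFP+ replicate 2 (edgeR adjusted p = 0.0338) and in GFP- cells without P6 GFP- replicate 1 (0.0296) or replicate 2 (0.0218), and that of *Dusp1* in GFP+ cells without P1 GFP+ replicate 2 (0.0312). *Egr2*, the EGR gene of myelinating Schwann cells, had means of 101 CPM in P1 GFP+, 88.3 in P1 GFP-, 84.4 in P6 GFP+ and 105 in P6 GFP- cells and was not called in any comparison.

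Between the fractions the same list was mixed. At P1 3 of 30 were called higher in GFP+ cells and 9 lower, with a median of -0.23, where 16.6% of all genes were called higher and 20.7% lower. At P6 1 of 29 was higher and 9 were lower, with a median of -0.39, where 7.72% of all genes were higher and 5.19% lower. Past the 4-fold limit, 1 was higher and 3 were lower at P1, and 1 was higher and 4 were lower at P6. Those lower at P1 were *Myc* (log2 -4.41, edgeR adjusted p = 3.035e-05), *Ier3* (log2 -4.12, edgeR adjusted p = 3.476e-05) and *Socs3* (log2 -3.42, edgeR adjusted p = 1.484e-05). *Nr4a2* was called lower at P1 (log2 -1.03, edgeR adjusted p = 0.00849) and at P6 (log2 -2.26, edgeR adjusted p = 0.00713). *Nr4a3*, which encodes an orphan nuclear receptor, had the largest absolute log2 fold change of the called genes of this list at both ages. It was at 207 and 180 CPM in P1 GFP+ cells against 1.61 and 2.85 CPM in P1 GFP- cells (90.4-fold, log2 6.50, standard error 0.27, edgeR adjusted p = 2.158e-05), and at 107.5 and 102 CPM against 9.83 and 3.49 CPM at P6 (15.6-fold, log2 3.97, edgeR adjusted p = 0.00478). Without P6 GFP- replicate 2 the P6 log2 fold change of *Nr4a3* was 3.39 and missed the threshold. That fit leaves 1 library in the GFP- group, and whether the miss bears on *Nr4a3* in particular was not tested.

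Genes that act with the 10 were taken from short lists of upstream factors, corepressors and partners. Of 8 transcription factors upstream, such as SRF and its partners, 0 were called with age in either fraction by edgeR. At P1 1 of the 8 was called higher in GFP+ cells and 2 lower, where 16.6% and 20.7% of all genes were. *Srf* itself was 2.15-fold higher (101.7 against 51.0 CPM, edgeR adjusted p = 0.000835). *Elk3* (log2 -1.23, edgeR adjusted p = 0.000304) and *Mkl1* (log2 -0.81, edgeR adjusted p = 0.000800) were lower. At P6 0 were called higher and 1 lower (*Mkl1*, log2 -1.24, edgeR adjusted p = 0.00763), beside 7.72% and 5.19% of all genes. Of the EGR corepressors, *Nab2* had 1.77 and 1.33 CPM in P1 GFP+ cells, 25.7 and 31.0 CPM in P1 GFP- cells, 14.5 and 16.8 CPM in P6 GFP+ cells and 28.4 and 29.6 CPM in P6 GFP- cells. It was 16.7-fold lower in GFP+ cells at P1 (edgeR adjusted p = 4.464e-05) and rose 10.6-fold with age in GFP+ cells (edgeR adjusted p = 0.00321), which was lost without P1 GFP+ replicate 2 (edgeR adjusted p = 0.0155). *Nab1* rose 2.22-fold in GFP+ cells (edgeR adjusted p = 0.00742), which was lost without P1 GFP+ replicate 1 (edgeR adjusted p = 0.0568) or replicate 2 (0.105). Of 9 other AP-1 partner genes, 1 of 9 tested (*Maf*) was called higher with age in GFP- cells and 0 of 6 in GFP+ cells. Of 9 heat shock genes, which mark another stress response, 1 was called higher with age in GFP+ cells and 1 in GFP- cells. *Hspb1* rose in GFP+ cells from a mean of 0.253 to 2.86 CPM (edgeR adjusted p = 0.00744) and *Dnajb1* rose in GFP- cells from 80.5 to 158 CPM (edgeR adjusted p = 0.00186). The *Hspb1* rise was lost without P1 GFP+ replicate 1 (edgeR adjusted p = 0.0129) or replicate 2 (0.0632), that of *Dnajb1* without P6 GFP- replicate 1 (0.0156), and that of *Maf* without P6 GFP- replicate 1 (0.0225) or replicate 2 (0.0130).

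In 3 of the 4 groups the replicates of these genes lay, by median, farther apart than those of all genes, on log2(CPM + 1). In P1 GFP+ cells replicate 1 was above replicate 2 in 10 of 10 genes, the median absolute log2 difference was 0.36 beside 0.11 for all 17386 genes with a mean of at least 10 counts, and 6 genes were beyond the 90% quantile of all genes, 0.31. In P1 GFP- cells replicate 1 was above replicate 2 in 1 of 10 genes, with a median of 0.27 beside 0.16, and 4 genes were beyond the quantile of 0.50. In P6 GFP- cells replicate 1 was above in 9 of 10, with a median of 0.25 beside 0.13, and 4 genes were beyond 0.37. In P6 GFP+ cells it was above in 8 of 10, the median was 0.25 beside 0.27, and 1 gene (*Fosl2*) was beyond 0.84. On this scale the widest gap was that of *Atf3* in P1 GFP- cells, with a log2 difference of -1.18. As a plain ratio of CPM this gap was 2.34-fold, and the widest was that of *Egr4* in P6 GFP+ cells, 2.69-fold, at 1.80 and 0.670 CPM.

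**Figure D4:**
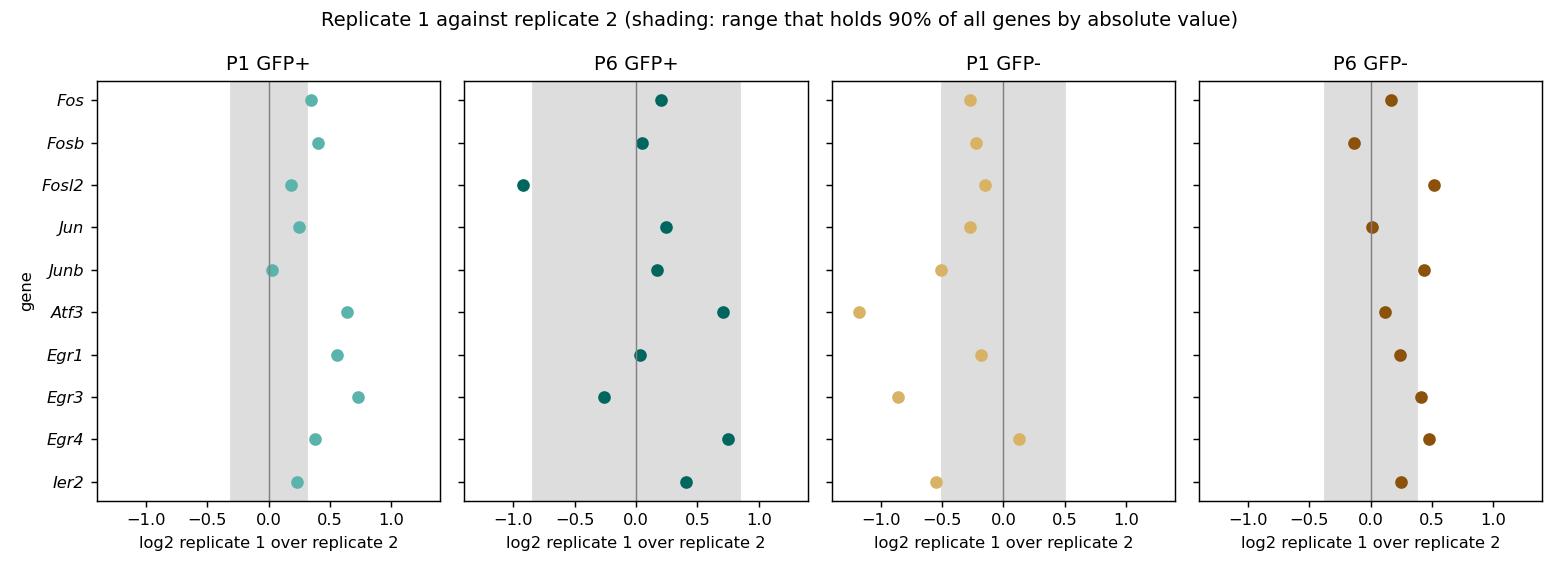
Log2 ratio of replicate 1 over replicate 2, as log2(CPM + 1), for each gene in the 4 groups. The shaded band holds 90% of all genes by absolute value, and all 10 points of P1 GFP+ cells are above 0 while 9 of the 10 points of P1 GFP- cells are below 0.

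Across the 8 libraries, 8 of the genes varied together. Over the 28 pairs among them, Pearson's r of log2(CPM + 1) was between 0.58 and 0.98, while the 16 pairs of *Egr3* or *Egr4* with any of the 8 had r between -0.67 and -0.09 and *Egr3* with *Egr4* had r = 0.77. The libraries fall into 4 groups of 2 and share age and depth, so these values are descriptions and have no p-value. The 5 other genes with the highest r to the mean of the 10, each gene first centred and scaled over the libraries, among 10911 genes with a mean of at least 10 CPM, were *Ppp1r15a* (r = 0.98), *Zfp36* (r = 0.96), *Pnp* (r = 0.96), *Prnp* (r = 0.95) and *Gpd2* (r = 0.95). *Ppp1r15a*, a stress-induced phosphatase subunit, ran from 79.8 to 182 CPM, and *Zfp36*, which encodes a protein that destabilizes mRNA, from 77.4 to 484 CPM. An r above 0.9 was found for 48 of the 10911 genes, whose median r was -0.19. Without P6 GFP+ replicate 2, 3 of these 5 genes remained among the first 5.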

How the data were processed

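Per the labels and the methods, paired-end reads of 8 libraries (2 per group) were aligned by the authors to mm9 (NCBIM37) with TopHat, version 1.4.0 in the submitters' processing notes, and the deposited files hold the raw count of each Ensembl gene, not normalized. The counting mode is not given in the sources used here. Reads on no gene (13.8% to 25.6%), on several genes or aligned at several places were left out.

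The 10 members and the lists were chosen with earlier results of these data known. CPM was the count over the gene total of the library. The tests used edgeR 4.0.16 in R 4.3.3 (TMM, filterByExpr with a minimum count of 10 and total of 15), on the 4 libraries of a comparison, or on all 8 for the interaction, after a check on simulated data. Alternatives were DESeq2 1.42.0 and its size factors, library totals, no filter, a fold limit of 4, all 8 libraries, a replicate block and leaving out each library, where the lone library of a group is assumed to vary like the others. The text names all members, and of other lists *Egr2* and some genes with a called difference, chosen after their values were seen.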

Additional observations from a re-analysis of the deposited data

Results flagged for a closer look

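The estimates of *Egr4* and *Egr3* for the change with age had opposite signs in the 2 fractions, and none of the 4 passed the threshold. For *Egr4* the age by fraction interaction was -4.59 on the log2 scale (standard error 0.75, edgeR adjusted p = 0.0122), and both P6 libraries were below both P1 libraries in GFP+ cells and above them in GFP- cells. For *Egr3* the interaction was -2.05 (edgeR adjusted p = 0.0509), its change with age in GFP- cells was 0.58 (edgeR adjusted p = 0.218) with replicates that overlapped, and the difference between the fractions was opposite at P1 and at P6 without overlap of replicates. Neither interaction passed the threshold with all libraries. Over the 8 ways to leave out 1 library, the edgeR adjusted p of *Egr4* ran from 0.00119 to 0.0629 and that of *Egr3* from 0.0371 to 0.188.

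Among the genes of the other lists, the age by fraction interaction was past the threshold for *Nab2* at 3.15 on the log2 scale (standard error 0.27, edgeR adjusted p = 0.00115) and for *Socs3*, a feedback inhibitor of cytokine signaling, at 1.48 (standard error 0.22, edgeR adjusted p = 0.00925). The call of *Nab2* was lost without P6 GFP- replicate 1 (edgeR adjusted p = 0.0169) or replicate 2 (0.0164). The call of *Socs3* was lost without any library except P6 GFP+ replicate 1 or replicate 2, with edgeR adjusted p-values of up to 0.0727, and with a replicate block (0.0245). With 2 libraries in a group, no library was tested for standing apart from the others of its group.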

How the results depend on the processing

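Of the counts of members called, those at P1 (1 higher and 1 lower in GFP+ cells) became 2 higher with the DESeq2 test or without the filter on low counts. The lower count became 0 with the fold limit of 4 or with all 8 libraries in the fit, 2 with library totals or the DESeq2 test and 3 without the filter. Leaving out 1 library gave 1 to 3 higher and 0 to 5 lower. At P6 the count of 0 lower became 1 with the DESeq2 test and 2 without the filter, and 0 to 3 with 1 library left out. With age in GFP+ cells, 2 higher became 1 with the fold limit, 6 with the DESeq2 test or without the filter and 4 with the replicate block, and 0 to 7 with 1 library left out. The count of 0 lower became 2, 2 and 1 under the last 3 and 1 with all 8 libraries, and 0 to 2 with 1 library left out. In GFP- cells, 4 higher became 1 with the fold limit, 8 with the DESeq2 test and 10 without the filter, and 0 to 8 with 1 library left out. For the interaction, 0 lower became 2 with the DESeq2 test or without the filter and 1 with the replicate block, and 0 to 1 with 1 library left out. Of the 5 genes most like the mean, 3 remained without P6 GFP+ replicate 2. The cause of these changes was not tested. Between the fractions the replicate numbers gave little sign of pairing, with a correlation of replicate differences of 0.02 at P1 and 0.09 at P6. Between the ages it was -0.08 in GFP+ cells and -0.28 in GFP- cells. In GFP- cells the replicate differences of the 2 ages thus ran partly opposite by number, and the cause was not tested. Whether the GFP+ and GFP- libraries of the same number came from the same sort is not given in the sources used here. The block changed no other count of members by more than 1.5 times. With the numbers crossed between the ages in GFP- cells, an alternative chosen after seeing the data, 7 members and 3063 genes were called.

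Over all genes, the 6972 calls at P1 ran from 3331 to 9233 over the settings, the 2363 at P6 from 1459 to 5309, the 828 in GFP+ cells by age from 441 to 4090, the 1397 in GFP- cells from 350 to 3993 and the 372 of the interaction from 151 to 2400. With 1 library left out they ran from 3675 to 9798, 0 to 7767, 137 to 7531, 249 to 3029 and 28 to 1407 in the same order. Library totals shifted the median of all genes by -0.11 at P1, -0.19 with age in GFP- cells and 0.12 in the interaction, where the estimates that were not called became 0.077 for *Fos* and 0.053 for *Fosb* and so changed sign.

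Leaving out 1 library at a time turned the direction of several differences that were not called. At P1 the log2 difference between GFP+ and GFP- cells then ranged from -0.30 to 0.16 for *Fosb*, from -0.59 to 0.64 for *Atf3*, from -0.56 to 0.049 for *Egr1* and from -0.41 to 0.15 for *Ier2*. At P6 it ranged from -0.20 to 0.042 for *Jun*, from -0.71 to 0.71 for *Egr4* and from -0.12 to 0.29 for *Ier2*. For the difference between fractions in the change with age, the ranges were -0.20 to 0.15 for *Fos*, -0.25 to 0.16 for *Fosb*, -0.41 to 0.16 for *Egr1* and -0.058 to 0.49 for *Ier2*.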
